A study of Homo sapiens with 10 samples.

Results

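Gene expression was compared directly between 2 lines of A549 cells that carry different variants of ABCA3, the E292V line and the E690K line. The comparison used 4 of the 10 libraries of the series, chosen by genotype label and matched by vector status, with 1 untreated and 1 transduced library on each side. A549 is an established human lung adenocarcinoma line that serves as a model of alveolar epithelium. The transduced cells had been exposed overnight to a VSVG lentiviral vector, LV-ABCA3:GFP, made to deliver an ABCA3:GFP fusion, with a multiplicity of infection of 20. The other 6 libraries came, untreated and transduced, from a wild-type line (WT), a line whose label is ABCA3 KO and a line with the variant L101P. They entered the comparison through the shared estimate of the spread and as reference levels. Each genotype is represented by 1 line, and no treatment was sampled in replicate. The labels do not say whether a line is 1 clone. A test between the lines therefore sets their difference against departures from additivity among these libraries, not against the spread between independent clones. The variant cannot be told apart from any other property of the line that carries it.

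ABCA3 is an ATP-driven transporter that moves phospholipids into lamellar bodies, the organelles in which alveolar type 2 cells store surfactant before secretion. Loss of its function causes surfactant deficiency in newborns and interstitial lung disease in children. Pathogenic variants are sorted into those that hold the protein back on its way to the lamellar body, called type 1, and those that reach it but transport poorly, called type 2, and E292V and E690K belong to the second kind. The reference codons that the variants replace are shown because the lines are named for them. The reference coding sequence around each follows, with the codon in capitals, from transcript ENST00000301732.9 of GENCODE release 29, on the minus strand of GRCh38. The codon replaced in E292V lies in exon 9 of 33 at chr16:2317762-2317764, and its window runs across an exon junction. The codon replaced in E690K lies in exon 17 at chr16:2297522-2297524, in the Walker B stretch of the first nucleotide-binding domain.
ABCA3 at E292V: aggaggctgaagGAGtacatgcgcatg
ABCA3 at E690K: ctgatactggacGAGcccacctcgggc
Both reference codons are GAG, which encodes glutamate, the first letter of each variant name. Counts per gene carry no bases, so the genotypes were not checked on them.

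The 4 libraries held between 75640815 and 94845294 counts, within the range of 59430095 to 96811421 over the 10 libraries. Mitochondrially encoded genes took 4.62% and 4.77% of the counts in the untreated and transduced E292V libraries and 5.11% and 5.52% in the E690K libraries. Levels are given below as CPM, counts scaled to library size with TMM (trimmed mean) factors, in the order untreated then transduced. Epithelial markers were abundant in both lines, with a summed level over 7 genes of 8357 and 7935 CPM in E292V and 11280 and 11190 CPM in E690K. Markers of endothelium summed to at most 0.531 CPM in the 4 libraries, with KDR at 0 counts. The 7 leucocyte markers summed to 24.7 and 28.2 CPM in E292V and to 39.1 and 38.2 CPM in E690K, with CD3E at 0 counts and PTPRC at no more than 0.134 CPM. Most of that sum was CD68, a lysosomal protein of macrophages, at 20.1 and 23.4 CPM against 33.85 and 33.75 CPM (log2 fold change -0.64, SE 0.14, edgeR adjusted p 0.0129). CD68 did not pass without any 1 of the 4 libraries (edgeR adjusted p 0.056 to 0.166). The genes of surfactant protein A were barely counted: SFTPA1 had 0 counts in the 4 libraries, and SFTPA2 had at most 10. In the pair labelled KO, ABCA3 and EGFP went against the labels, so named calls that end, and list counts that move by over 1.5 times, when that pair is left out are marked.

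ABCA3 (ENSG00000167972.13, chr16:2275881-2340746, minus strand) stood at almost the same level in both lines. It was at 965 CPM (95% Wilson interval 955 to 975) and 1021 CPM (1012 to 1031) in E292V, and at 900.3 CPM (891 to 910.0) and 994 CPM (984 to 1004) in E690K. These intervals cover counting error only. The E292V level was the higher one in both pairs, and the ranges of the lines overlapped. The log2 fold change of E292V over E690K was 0.06 (SE 0.77, edgeR adjusted p 0.976), with a wide error that includes the discordant KO pair. The count of ABCA3 does not separate transcripts of the cells' own gene from those of the vector. EGFP, counted because the vector is labelled with GFP, was at 20.2 and 66.0 CPM in E292V and at 16.5 and 18.5 CPM in E690K. It was thus present in the untreated libraries of both lines, and the transduced E292V library stood above the other 3. In the other lines EGFP was at 69.7 and 150.9 CPM in WT, 37.9 and 0.0497 CPM in KO, and 1.005 and 36.9 CPM in L101P. The row therefore did not follow the vector labels in every line. Between the lines EGFP did not pass (log2 fold change 1.11, SE 1.29, edgeR adjusted p 0.687). It passed with the 4 libraries fitted alone (log2 fold change 1.07, edgeR adjusted p 2.99e-20) and without the KO and L101P pairs (1.07, edgeR adjusted p 3.34e-05). The fit of 4 libraries had 1 residual degree of freedom, so its p-value carries little weight. On the log2 scale EGFP differed by 0.29 in the untreated pair and by 1.84 in the transduced pair. A second reporter row, tdTomato, was at 8.74 and 7.41 CPM in E292V and at 7.38 and 8.62 CPM in E690K, with overlapping ranges.

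**Figure D1:**
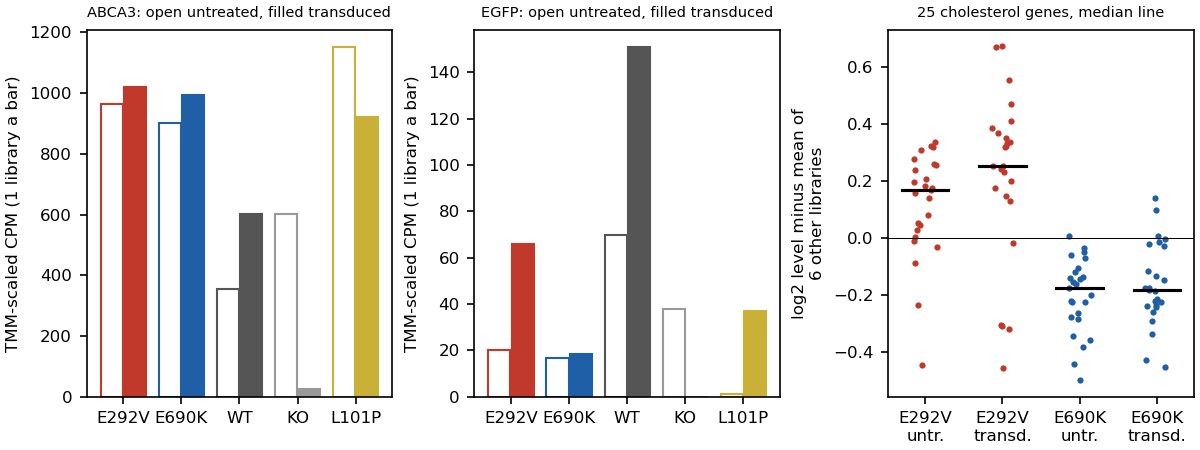
TMM-scaled CPM of ABCA3 (left) and EGFP (middle) in the 10 libraries, 1 bar a library, open for untreated and filled for transduced, and the 25 genes of cholesterol synthesis and uptake (right) as log2 level minus the mean of the 6 WT, KO and L101P libraries, with the median as a line. ABCA3 lies between 900.3 and 1021 CPM in the 4 E292V and E690K libraries, EGFP is highest among them in transduced E292V at 66.0 CPM, and the cholesterol medians lie at 0.17 and 0.25 in E292V and at -0.17 and -0.18 in E690K.

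Outside ABCA3 the lines differed widely. Of 17978 genes tested, 1869 (10.4%) passed an edgeR adjusted p of 0.05, 794 of them higher in E292V (4.42%) and 1075 lower (5.98%). An unadjusted p under 0.05 was reached by 4207 genes. Most differences were modest: the median log2 fold change was 0.72 among the higher genes and -0.56 among the lower ones. Differences of more than 2-fold were called for 287 higher and 237 lower genes, and of more than 4-fold for 115 and 72. All 1869 pointed the same way in both pairs, with both libraries of one line above both of the other. Over all genes tested, both E292V libraries lay above both E690K libraries for 29.0% and below them for 26.7%. The number of calls depended on which libraries estimated the error. It was 688 without the transduced E292V library, 662 and 763 without the untreated and the transduced E690K library, 2934 without the L101P pair and 3190 with the 4 libraries alone, and in each of these fits more genes were lower than higher.

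Over the 9460 genes averaging at least 10 CPM, the log2 difference between the lines had a standard deviation of 0.32 without and 0.38 with the vector. Differences of more than 2-fold were seen for 132 genes without and 191 with the vector, and for 108 in both pairs in the same direction. Across these genes the differences of the 2 pairs, which share no library, had a Pearson r of 0.83 and a Spearman rho of 0.66, as a description over genes that are not independent replicates.

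**Figure D2:**
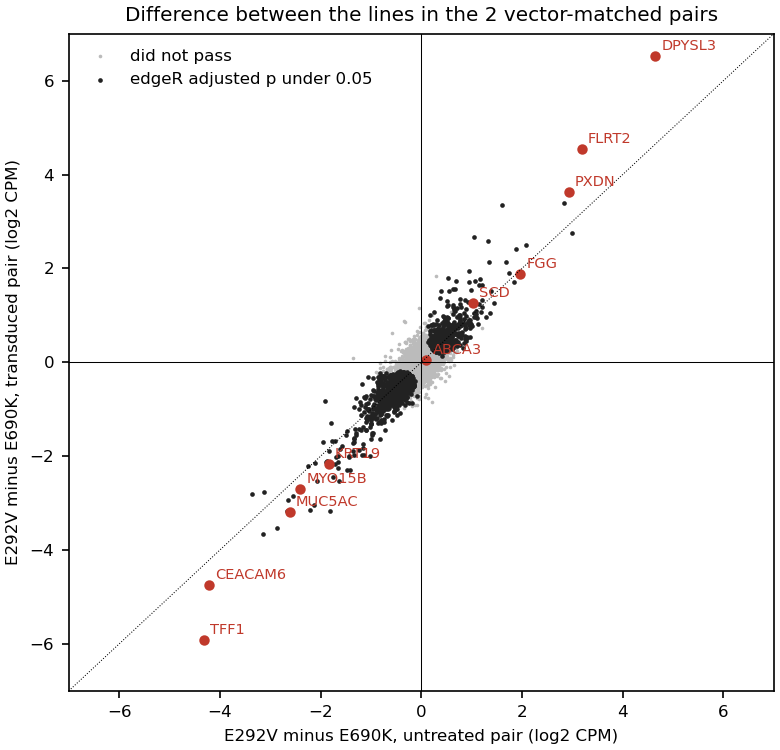
Log2 difference in CPM between E292V and E690K in the untreated pair (x axis) and the transduced pair (y axis) for the 9460 genes that average 10 CPM or more, black where the edgeR adjusted p was under 0.05, with selected genes labelled in red. Called genes lie below 0 on both axes or above 0 on both, ABCA3 lies near the origin, and DPYSL3 and TFF1 lie farther from 0 in the transduced pair than in the untreated one.

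The 12 genes most strongly higher in E292V were led by APBB1IP, DPYSL3 and GFRA1. DPYSL3 (ENSG00000113657.12, chr5:147390811-147510056), a cytoskeletal regulator of growth cones, was at 105 and 444 CPM in E292V and at 4.20 and 4.81 CPM in E690K. Both E292V libraries were far above both E690K libraries (51.2-fold, log2 fold change 5.68, SE 0.50, edgeR adjusted p 4.23e-05). GFRA1 (ENSG00000151892.14, chr10:116056925-116273467), the GDNF co-receptor, was at 6.56 and 23.4 CPM in E292V against 0.187 and 0.473 CPM in E690K (log2 fold change 5.41, SE 0.31, edgeR adjusted p 5.34e-06). APBB1IP, an adaptor that links Rap1 to integrin activation, was at 6.83 and 19.4 CPM against 0.241 and 0.131 CPM (log2 fold change 6.01, SE 0.83, edgeR adjusted p 6.02e-04). In each of these 3 genes the transduced E292V library was the highest of the 10. FLRT2, an adhesion protein and guidance ligand, was at 17.7 and 60.3 CPM in E292V and at 1.94 and 2.58 CPM in E690K (log2 fold change 3.94, SE 0.46). PXDN, the peroxidase that crosslinks collagen IV, was at 43.1 and 77.9 CPM against 5.66 and 6.28 CPM (log2 fold change 3.25, SE 0.24), and both E292V libraries exceeded the other 8 libraries of the series. SPARC, a collagen-binding matrix protein, was at 10.97 and 36.3 CPM against 2.37 and 2.37 CPM (log2 fold change 3.21, SE 0.52). OLFML3, a secreted matrix glycoprotein, and GALNT16, an enzyme that starts O-glycans, had log2 fold changes of 3.15 (SE 0.38) and 3.09 (SE 0.34). TINAGL1, a basement membrane protein, SCN9A, a voltage-gated sodium channel, and ADAMTS12, a metalloprotease, had log2 fold changes of 4.32, 3.37 and 3.35. NTS, the precursor of neurotensin, differed from the other 11 in that its untreated E292V library was the higher one: 49.2 and 40.5 CPM against 6.18 and 5.99 CPM (log2 fold change 2.88, SE 0.34). The edgeR adjusted p of the 12 genes ran from 5.34e-06 for GFRA1 to 0.0102 for ADAMTS12. ADAMTS12 did not pass without the transduced E292V library or without either E690K library (edgeR adjusted p 0.0803 to 0.164), and SPARC did not pass without the transduced E690K library (0.0591).

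Among the 12 genes most strongly lower in E292V were secreted, adhesion and keratin genes, TFF1, CEACAM6, CEACAM5, KRT6A and KRT16. TFF1 (ENSG00000160182.2, chr21:42362282-42366594), a trefoil peptide secreted with mucus, was at 1.93 and 0.645 CPM in E292V and at 38.3 and 39.1 CPM in E690K. The 2 lines did not overlap, and both E292V libraries were below the other 8 libraries (log2 fold change -4.92, SE 0.64, edgeR adjusted p 4.41e-04). CEACAM6 (ENSG00000086548.8, chr19:41750977-41772208), a cell adhesion molecule of mucosal epithelium, was at 37.3 and 23.9 CPM against 697 and 639.8 CPM (log2 fold change -4.41, SE 0.49, edgeR adjusted p 1.60e-04). Its neighbour on chromosome 19, CEACAM5, was at 1.81 and 2.39 CPM against 18.7 and 16.7 CPM (log2 fold change -3.20, SE 0.74, edgeR adjusted p 0.0153). The stress keratins KRT6A and KRT16 had log2 fold changes of -4.72 (SE 0.74) and -3.98 (SE 0.47), with KRT16 at 0.765 and 0.271 CPM in E292V and 8.13 and 8.18 CPM in E690K. KRT6A was at 0.197 and 0.198 CPM in E292V and at 4.04 and 6.65 CPM in E690K, where the transduced library was the higher one. CEACAM5, CEACAM6, KRT6A, KRT16 and CES1 have close paralogs, and since the handling of shared reads is not given, their levels are uncertain. CAPN8, a calpain of gastric mucous cells, was at 0.666 and 0.333 CPM against 7.76 and 7.04 CPM (log2 fold change -3.89, SE 0.52). TRIM29, an ATM-interacting protein of squamous epithelium, was at 4.66 and 3.21 CPM against 41.4 and 40.4 CPM (log2 fold change -3.37, SE 0.33). LGR6, an R-spondin receptor, was at 3.12 and 2.02 CPM against 19.9 and 18.3 CPM (log2 fold change -2.89, SE 0.31). DCLK1, a microtubule-linked kinase, was at 2.69 and 1.46 CPM against 17.5 and 21.6 CPM (log2 fold change -3.20, SE 0.33), and here the E690K pair exceeded all other libraries of the series. CST1, a secreted cysteine protease inhibitor, FSTL4 and CES1, a carboxylesterase, had log2 fold changes of -3.16, -2.95 and -2.92. CES1 was low in both lines, at 0.321 and 0.0416 CPM in E292V and at 1.12 and 1.18 CPM in E690K, and both pairs were below the 6 other libraries. The edgeR adjusted p of the 12 genes ran from 1.39e-05 for FSTL4 to 0.0153 for CEACAM5. CEACAM5 and CST1 did not pass without the transduced E292V or the untreated E690K library (edgeR adjusted p 0.122 to 0.215 and 0.0723 to 0.101), CES1 did not pass without the transduced E690K library (0.0622), and CEACAM5 did not pass with the KO labels exchanged (0.0516).

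**Figure D3:**
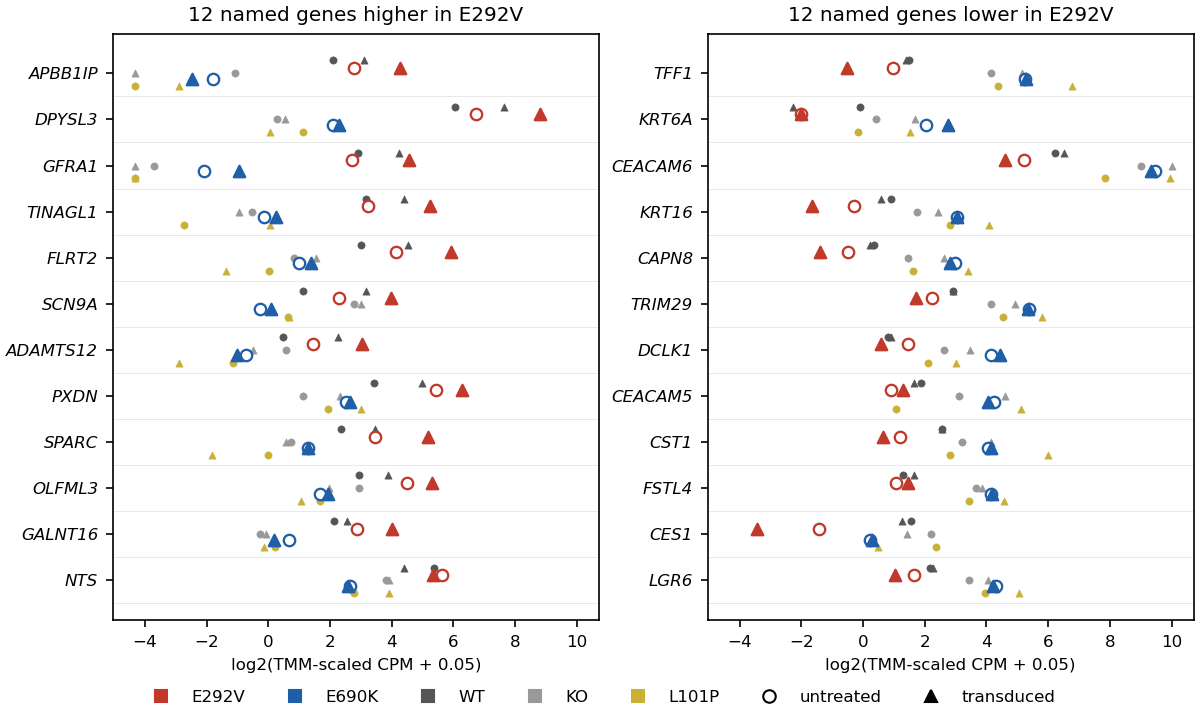
Levels of the 12 genes most strongly higher (left) and the 12 most strongly lower (right) in E292V, as log2 of TMM-scaled CPM plus 0.05, in each of the 10 libraries. E292V (red) and E690K (blue) are the large symbols, circles untreated and triangles transduced, and the small symbols are WT, KO and L101P; in the left panel 11 of the 12 transduced E292V values exceed the untreated ones.

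These 24 genes were also compared with the other lines and between vector states. They were chosen for a large change in the same E292V and E690K libraries, which favours extreme values there. The values below are therefore a description of the chosen genes, and the same medians were not taken over all genes. In the E292V line the transduced library was above the untreated one for 11 of the 12 higher genes, with a median log2 difference of 1.64. In WT this also held for 11 of 12, with a median of 1.27. The corresponding medians were 0.17 in E690K, -0.03 in KO and -0.18 in L101P. The mean level in WT was nearer to E292V than to E690K for 11 of the 12 higher genes, that in KO for 1 and that in L101P for 0. For the 12 lower genes the median log2 difference between transduced and untreated libraries was -0.63 in E292V, 0.02 in E690K, -0.05 in WT, 0.88 in KO and 1.47 in L101P, and WT was nearer to E292V for 10. The KO medians take that pair's labels as given.

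The promoters of the 24 genes were searched for short motifs. The genes were chosen for their direction, so moving together is not a finding about them. RefSeq promoters on GRCh38.p14, taken as the 250 bases before the start, were matched by symbol for all 12 higher genes and for 6 of the 12 lower genes. The E-box CACCTG, a motif of the ZEB and SNAI repressors, was present on either strand in 3 of those 6, in 0 of the 12 higher genes and in 17.5% of all 27305 promoters. The AP-1 motif TGANTCA was present in 2 of the 6, in 1 of the 12 and in 6.60% of all promoters. The 3 lower genes with an E-box are shown 5′ to 3′ on the strand of the gene, with each match in capitals. CAPN8, at chr1:223665702-223665951 on the minus strand, holds an AP-1 match followed by an E-box on the reverse strand. CEACAM5, at chr19:41708376-41708625 on the plus strand, holds 1 E-box, and FSTL4, at chr5:133612542-133612791 on the minus strand, holds 2.
CAPN8 promoter: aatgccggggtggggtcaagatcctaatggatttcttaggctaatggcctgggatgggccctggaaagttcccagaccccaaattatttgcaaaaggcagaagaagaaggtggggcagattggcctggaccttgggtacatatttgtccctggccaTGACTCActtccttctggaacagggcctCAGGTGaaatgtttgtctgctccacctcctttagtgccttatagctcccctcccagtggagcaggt
CEACAM5 promoter: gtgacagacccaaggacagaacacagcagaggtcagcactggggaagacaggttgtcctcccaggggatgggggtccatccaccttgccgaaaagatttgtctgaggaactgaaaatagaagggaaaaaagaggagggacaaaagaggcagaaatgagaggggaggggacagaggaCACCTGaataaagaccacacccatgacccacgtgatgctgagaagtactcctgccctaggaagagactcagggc
FSTL4 promoter: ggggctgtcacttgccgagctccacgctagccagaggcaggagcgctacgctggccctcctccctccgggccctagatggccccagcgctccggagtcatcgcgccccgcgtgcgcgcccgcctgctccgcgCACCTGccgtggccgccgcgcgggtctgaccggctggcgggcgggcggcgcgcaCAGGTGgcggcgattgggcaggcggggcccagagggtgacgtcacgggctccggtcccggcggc
A match is a description of letters and does not show binding. With 6 promoters in the lower set, the share rests on few genes.

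Genes of cholesterol synthesis and uptake were mostly higher in E292V. Of 25 listed and tested, 13 were called higher and 1 lower (56.0%, against 10.4% of all genes). A positive log2 fold change was seen for 23, and the median was 0.42, where the median over all genes was 0.02. INSIG1, the sterol-regulated anchor of SREBP, was at 40.6 and 51.7 CPM in E292V and at 24.9 and 26.5 CPM in E690K (log2 fold change 0.84, SE 0.12, edgeR adjusted p 7.38e-04). DHCR7, which reduces the sterol ring at the end of synthesis, was at 122.5 and 137 CPM in E292V and at 81.3 and 84.65 CPM in E690K (log2 fold change 0.65, SE 0.10, edgeR adjusted p 9.77e-04), and the E292V pair lay above the 6 WT, KO and L101P libraries. CYP51A1, the lanosterol demethylase, and ACAT2, which makes acetoacetyl-CoA, had log2 fold changes of 0.60 (SE 0.15) and 0.55 (SE 0.10). The 1 lower member was EBP, the sterol isomerase, at 71.9 and 71.4 CPM against 94.6 and 95.9 CPM (log2 fold change -0.41, SE 0.09, edgeR adjusted p 0.00993), whose gene lies in the chromosome X segment described below. Against the mean of the 6 other libraries, the median over the list was 0.17 and 0.25 in E292V and -0.17 and -0.18 in E690K, so the lines lay on opposite sides of it. Those 6 libraries differed among themselves. The summed level of the list was 1630 and 1648 CPM in WT, 1571 and 1434 CPM in KO, and 1435 and 1443 CPM in L101P. It was 1678 and 1817 CPM in E292V and 1332 and 1378 CPM in E690K, so WT lay nearer to E292V. The number of higher calls was 3 without the transduced E292V library, 3 without the transduced and 5 without the untreated E690K library, with list medians between 0.32 and 0.45 in the fits that leave out 1 of the 4 libraries. CYP51A1 did not pass without any 1 of the 4 libraries (edgeR adjusted p 0.0561 to 0.186), and ACAT2 did not pass without either transduced library (0.0612 to 0.0823). The sterol regulatory element TCACNCCAC, searched on both strands, was present in 1 of the 18 listed genes with a promoter entry and in 0.875% of all promoters, and in 0 of the 8 higher members with an entry.

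Fatty acid and phospholipid genes were split, with 6 higher, 5 lower and a median of 0.05 over 34 tested (32.35% called). SCD, which desaturates stearate, was at 765 and 913 CPM in E292V and at 375 and 380.0 CPM in E690K. The E292V pair lay above the other 8 libraries (log2 fold change 1.15, SE 0.11, edgeR adjusted p 9.57e-05). ELOVL6, an elongase of saturated fatty acids, was 0.62 higher on the log2 scale (SE 0.10), while AGPAT2, an acyltransferase of the phosphatidate pathway, and ACACB, the mitochondrial acetyl-CoA carboxylase, were lower by log2 fold changes of -0.61 (SE 0.09) and -0.59 (SE 0.11). Without the transduced E292V library or either E690K library, 3 fatty acid genes were higher and 2 to 3 lower. Among 14 lipid-transporting ABC genes tested, 1 was higher and 1 lower (14.3%, near the 10.4% of all genes). ABCA1, the cholesterol efflux transporter, was at 11.4 and 20.0 CPM in E292V against 5.49 and 4.42 CPM in E690K (log2 fold change 1.64, SE 0.27, edgeR adjusted p 0.00187). ABCA5 was lower (log2 fold change -0.76, SE 0.17, edgeR adjusted p 0.0133). ACACB did not pass without either transduced library (edgeR adjusted p 0.0823 to 0.109), ABCA1 without the transduced E690K library (0.0568), and ABCA5 without the transduced E292V or either E690K library (0.0995 to 0.137). Of 17 tested genes of alveolar type 2 cells and surfactant, 1 was higher and 1 lower (11.8%, also near that share): FOXA2, an endoderm transcription factor (log2 fold change 0.48, SE 0.10), and DMBT1, a mucosal scavenger protein (0.197 and 0.208 CPM against 2.03 and 2.42 CPM, log2 fold change -3.45, SE 0.60), with edgeR adjusted p of 0.00624 and 0.00272. FOXA2 did not pass without the transduced E292V or the untreated E690K library (0.113 to 0.116). SFTPC and SFTPD had at most 12 and 36 counts in the 4 libraries and did not pass (edgeR adjusted p 0.932 and 0.374).

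Several genes of plasma proteins made by the liver were low in E690K. FGG, FGA and FGB, the neighbouring genes of the fibrinogen chains on chromosome 4, were each higher in E292V. FGG was at 172 and 127 CPM in E292V and at 44.1 and 34.65 CPM in E690K (log2 fold change 1.92, SE 0.12, edgeR adjusted p 5.12e-06). FGB was at 243 and 186 CPM against 67.9 and 56.7 CPM (log2 fold change 1.77, SE 0.09, edgeR adjusted p 1.54e-06), and FGA had a log2 fold change of 1.21 (SE 0.09). C5, a complement component, was at 88.3 and 79.3 CPM against 38.1 and 34.9 CPM (log2 fold change 1.20, SE 0.08, edgeR adjusted p 6.21e-06). For FGG, FGB, FGA and C5 the untreated E292V library was the higher one, and both E690K libraries were below the 6 WT, KO and L101P libraries. CD55, which protects cells from complement, went the other way, at 45.2 and 43.0 CPM in E292V and at 125.5 and 117.8 CPM in E690K (log2 fold change -1.47, SE 0.25, edgeR adjusted p 0.00217), and did not pass without the untreated E690K library (0.0545). Of the 21 genes tested on this list, 5 were higher and 3 lower (38.1%, against 10.4% of all genes), with a median of 0.44. The counts were 4 to 5 higher and 2 to 4 lower without 1 of the 4 libraries, but the median was 0.11 without the untreated E292V library and 0.23 without the transduced E690K library.

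Keratins and mucous genes were lower in E292V as groups. Of 16 keratins tested, 9 were lower and 0 higher (56.25%, against 10.4% of all genes), with a median of -1.09. KRT19, a simple epithelial keratin, was at 78.6 and 61.6 CPM in E292V and at 281 and 279 CPM in E690K (log2 fold change -1.98, SE 0.26, edgeR adjusted p 4.97e-04), and its neighbour on chromosome 17, KRT15, differed by -1.84 on the log2 scale (SE 0.27, edgeR adjusted p 9.79e-04). KRT5, a keratin of basal cells, had 0 and 0 counts in E292V against 38 and 4 counts in E690K, which is too few for a fold. It did not pass without either E292V library or without the untreated E690K library (edgeR adjusted p 0.165 to 0.295). Of 26 tested mucins, trefoil factors and goblet cell genes, 9 were lower and 0 higher (34.6%). Their median was -1.21, or -1.19 with genes at the detection floor set to their bound. MUC5AC, the gel-forming mucin of airway and stomach, was at 17.1 and 10.3 CPM against 104.5 and 93.8 CPM (log2 fold change -2.82, SE 0.56, edgeR adjusted p 0.00629) and did not pass without the untreated E690K library (0.138). MUC13, a membrane mucin, was at 17.8 and 10.6 CPM against 55.8 and 50.5 CPM (log2 fold change -1.89, SE 0.31, edgeR adjusted p 0.00173). Without 1 of the 4 libraries, 5 to 11 keratins and 5 to 13 mucous genes were lower and 0 higher. The median of the mucous genes was -0.72 without the transduced E292V library and -1.64 without the transduced E690K library. Of 7 epithelial markers, 3 were lower and 1 higher, with KRT7 at 2474 and 2567 CPM against 3291 and 3420 CPM (log2 fold change -0.41, SE 0.08) and CDH1, the epithelial cadherin, higher by 0.47 on the log2 scale (SE 0.13, edgeR adjusted p 0.0397). CDH1 did not pass without the untreated E292V library or either E690K library (0.092 to 0.353), without the KO pair (0.073) or with its labels exchanged (0.0546), and KRT7 did not pass without the untreated E690K library (0.0561). Airway basal and ciliated markers summed to 15.2 and 16.6 CPM in E292V and to 20.6 and 19.01 CPM in E690K, and their part in these differences was not tested. In bulk RNA, fewer cells of a type and less RNA per cell cannot be told apart.

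**Figure D4:**
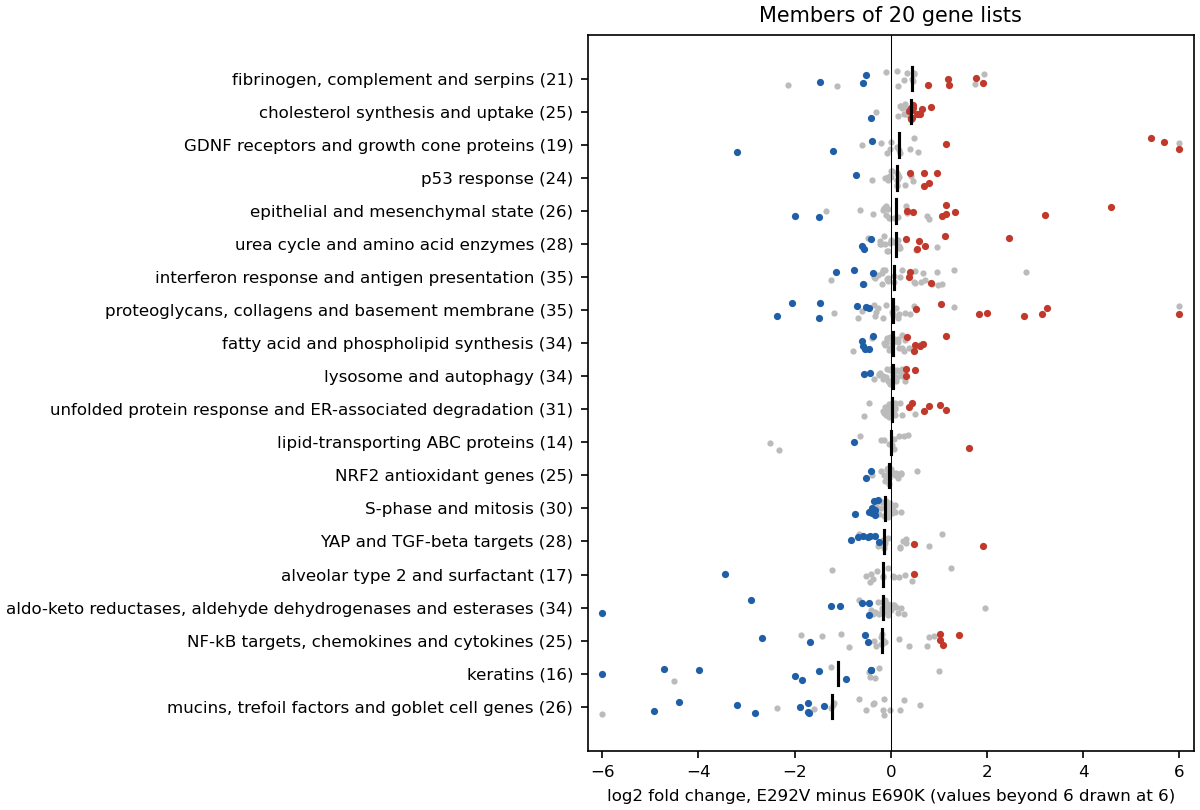
Log2 fold change of E292V over E690K for the tested members of 20 gene lists, 1 point a gene, red where higher and blue where lower with an edgeR adjusted p under 0.05 and grey otherwise, with the list median as a black line, the number tested in parentheses and values beyond 6 drawn at 6. The medians of keratins (-1.09) and mucous genes (-1.21) lie farthest to the left, and those of cholesterol synthesis (0.42) and fibrinogen and complement (0.44) farthest to the right, the last at 0.11 without the untreated E292V library.

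Matrix and mesenchymal genes changed in both directions. Of 35 tested genes of proteoglycans, collagens and basement membrane, 8 were higher and 7 lower, with a median of 0.05. Of this list 42.9% was called, against 10.4% of all genes. Beside PXDN, the higher members included GPC6, a glypican, at 1.88 and 3.38 CPM in E292V and with 0 counts in both E690K libraries. Set against the level of 6 counts, or 3 read pairs, per library, GPC6 was at least 31.7-fold higher, given as a description because the gene passed the count filter through the E292V libraries. ADAMTS9, a protease of proteoglycans, was at 2.52 and 2.14 CPM against 0.375 and 0.158 CPM (log2 fold change 3.15, SE 0.49, edgeR adjusted p 0.00142), and COL13A1, a transmembrane collagen, had a log2 fold change of 2.76 (SE 0.52). The lower members included COL4A6, a basement membrane collagen chain, at 17.9 and 7.81 CPM against 62.8 and 70.5 CPM (log2 fold change -2.36, SE 0.32, edgeR adjusted p 5.67e-04). LAMB3, a laminin chain of epithelial basement membrane, was chosen after its values were seen. It was at 40.4 and 27.8 CPM in E292V and at 135 and 152 CPM in E690K (log2 fold change -2.06, SE 0.18, edgeR adjusted p 3.40e-05). Of 26 tested genes of epithelial and mesenchymal state, 8 were higher and 2 lower (38.5%), with a median of 0.11. ZEB2, a repressor of epithelial genes, had 142 and 472 counts in E292V and 20 and 0 counts in E690K (edgeR adjusted p 0.00693). TWIST1, another mesenchymal factor, was at 3.36 and 5.53 CPM against 1.59 and 1.91 CPM (log2 fold change 1.33, SE 0.29), while OVOL2, a guardian of epithelial state, and CLDN4, a tight junction protein, were lower (log2 fold changes -1.99 and -1.49). Without 1 of the 4 libraries, COL13A1 (edgeR adjusted p 0.0527 to 0.103), TWIST1 (0.102 to 0.172) and OVOL2 (0.144 to 0.156) lost the call without the transduced E292V or the transduced E690K library, COL13A1 and TWIST1 also without the untreated E690K library, and ZEB2 without the transduced E292V library (0.0705). The list of epithelial and mesenchymal state had 1 to 6 higher and 1 to 3 lower genes in those fits, and 4 higher and 2 lower without the KO pair. Of 7 fibroblast markers, COL1A1 was the only one called, at 72.3 and 117 CPM in E292V and 21.6 and 31.1 CPM in E690K (log2 fold change 1.83, SE 0.26, edgeR adjusted p 8.07e-04). The summed level of the 7 was 76.1 and 119.9 CPM in E292V and 25.2 and 35.6 CPM in E690K. Outside COL1A1 and LUM, none of them exceeded 0.593 CPM in the 4 libraries.

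Of 28 tested genes of the urea cycle and amino acid metabolism, 6 were higher in E292V and 3 lower, with a median of 0.10, and the higher count was 3 without either E690K library. Of this list 32.1% was called, against 10.4% of all genes. BCAT1, the cytosolic branched-chain aminotransferase, was at 17.4 and 27.4 CPM against 4.04 and 4.05 CPM (log2 fold change 2.46, SE 0.43, edgeR adjusted p 0.00276). PHGDH, PSAT1 and PSPH, which carry out the 3 steps of serine synthesis, were each called higher. PHGDH was at 54.2 and 50.2 CPM in E292V and at 23.8 and 23.8 CPM in E690K (log2 fold change 1.13, SE 0.11, edgeR adjusted p 9.66e-05), and PSAT1 and PSPH had log2 fold changes of 0.58 (SE 0.09) and 0.71 (SE 0.12). For BCAT1 and all 3 serine enzymes the E292V pair exceeded the 6 WT, KO and L101P libraries. SMS, the spermine synthase encoded in the chromosome X segment, was the most strongly lower member (log2 fold change -0.60, SE 0.08). BCAT1 did not pass without either E690K library (edgeR adjusted p 0.0527 to 0.0612) and PSPH without the transduced one (0.0596). Of 31 tested genes of the unfolded protein response and ER-associated degradation, 6 were higher and 0 lower (19.35%), with a median of 0.03. Without the transduced E292V library 2 were higher, and without either E690K library 3. The 6 included ASNS, asparagine synthetase, at 69.6 and 79.2 CPM against 37.6 and 35.8 CPM (log2 fold change 1.02, SE 0.11, edgeR adjusted p 1.61e-04). XBP1, the transcription factor spliced by IRE1, was at 79.8 and 75.2 CPM against 47.3 and 42.4 CPM (log2 fold change 0.79, SE 0.10, edgeR adjusted p 4.04e-04), with E690K below the 6 other libraries. CHAC1, DDIT3 and TRIB3, targets of ATF4, had log2 fold changes of 1.15, 0.69 and 0.43 (edgeR adjusted p 0.00607 to 0.0173). Each of these 3 lost the call without the transduced E292V library (0.0728 to 0.273), CHAC1 and DDIT3 also without the transduced E690K library, and DDIT3 and TRIB3 also without the untreated one.

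Cell-cycle genes were slightly lower in E292V. Of 30 genes of S-phase and mitosis, 9 were called lower and 0 higher. Over all genes tested, 5.98% were called lower and 10.4% in either direction. A positive log2 fold change was seen for 6 of the 30, and the median was -0.12, where the median over all genes was 0.02. RRM2, a subunit of ribonucleotide reductase, was at 97.3 and 87.0 CPM in E292V and 152 and 159 CPM in E690K (log2 fold change -0.75, SE 0.09, edgeR adjusted p 2.24e-04). MKI67, a marker of cycling cells, was at 681 and 668 CPM against 924 and 935 CPM (log2 fold change -0.46, SE 0.09, edgeR adjusted p 0.00465), and both E690K libraries exceeded the 6 other libraries. CDC20, an activator of the anaphase-promoting complex, BIRC5, which encodes survivin, and TOP2A, a topoisomerase, lay between -0.41 and -0.40. The number of lower genes was 1 without the transduced E292V library and 1 without the untreated E690K library. MKI67, CDC20, BIRC5 and TOP2A lost the call without either of these, and BIRC5 also without the transduced E690K library (edgeR adjusted p 0.0581 to 0.177 in all).

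The remaining lists are read against the 10.4% of all genes that were called. Of 25 tested NF-kB targets, chemokines and cytokines, 4 were higher and 4 lower. CXCL8, a neutrophil attractant, was at 0.605 and 0.437 CPM in E292V and at 3.32 and 3.31 CPM in E690K (log2 fold change -2.67, SE 0.32, edgeR adjusted p 2.24e-04), with E292V below and E690K above the 6 other libraries. CCL2, a monocyte attractant, and CSF1, a macrophage growth factor, went the other way, with CSF1 at 50.1 and 56.5 CPM against 23.7 and 26.4 CPM (1.41, SE 0.21, for CCL2 and 1.09, SE 0.13, for CSF1 on the log2 scale, with edgeR adjusted p 9.98e-04 and 2.51e-04). Of 35 tested interferon and antigen presentation genes, 3 were higher and 4 lower. OAS3, a sensor of double-stranded RNA, was at 94.3 and 87.7 CPM against 152 and 160 CPM (log2 fold change -0.77, SE 0.08, edgeR adjusted p 1.42e-04), and its neighbour OAS1 had a log2 fold change of -1.14 (SE 0.24), lost without the transduced E292V or either E690K library (edgeR adjusted p 0.0591 to 0.113). Of the interferon list 20.0% was thus called, in both directions. Of 34 tested aldo-keto reductases, aldehyde dehydrogenases and esterases, 7 were lower and 0 higher. ALDH3A1, an aldehyde dehydrogenase of epithelia, was at 1002 and 619 CPM against 1962 and 1813 CPM (log2 fold change -1.24, SE 0.17, edgeR adjusted p 5.20e-04), and ALDH1A3, a retinal dehydrogenase, was at 22.4 and 24.4 CPM against 50.9 and 45.7 CPM (log2 fold change -1.06, SE 0.15, edgeR adjusted p 5.99e-04). Of 28 tested YAP and TGF-beta targets, 2 were higher and 7 lower. ANKRD1, a YAP target, was at 6.98 and 24.8 CPM against 3.53 and 3.55 CPM (log2 fold change 1.92, SE 0.32, edgeR adjusted p 0.00231), and LTBP1, which holds latent TGF-beta in the matrix, was at 39.6 and 36.3 CPM against 64.9 and 70.4 CPM (log2 fold change -0.83, SE 0.10, edgeR adjusted p 2.66e-04). ANKRD1 did not pass without the transduced E690K library (0.0548). The p53 list had 5 higher and 1 lower of 24, and the lysosome and autophagy list 3 and 2 of 34 (14.7%, near the share over all genes). The list of GDNF receptors and growth cone proteins, which holds APBB1IP, DPYSL3 and GFRA1, had 4 higher and 3 lower of 19, and the NRF2 list, of antioxidant genes, 0 and 2 of 25 (8.0%, below that share). Without the KO pair the lysosome list had 1 higher gene and the YAP and TGF-beta list 1 higher and 5 lower. Without the transduced E292V library or either E690K library, the lower counts were 1 to 2 for NF-kB, 1 for interferon, 3 for the aldo-keto list and 2 to 3 for YAP and TGF-beta, the higher counts were 1 to 3 for p53 and 1 for the lysosome list, and the NRF2 list had 0 calls. In the same fits the higher counts were 2 to 3 for NF-kB, 1 to 3 for interferon and 0 to 2 for YAP and TGF-beta. Without the untreated E292V library, 2 interferon genes and 4 YAP and TGF-beta targets were lower. Without the L101P pair the counts rose, to 8 lower NF-kB genes, 6 higher interferon genes and 6 higher and 6 lower lysosome genes.

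A further difference followed position on chromosome X. The segment below 57 Mb was already known from an earlier account of these data, for E292V against WT, so its values are a description. Of the 162 genes that start below 57 Mb on chromosome X and have a mean of at least 2 CPM, 91 (56.2%) were called lower in E292V and 2 higher, and 146 were lower in both pairs. Over the 11841 genes with a position and that level, 8.49% were called lower and 5.63% higher. The median log2 difference over the 162 genes was -0.46 without and -0.41 with the vector. Elsewhere on chromosome X, 227 genes had medians of 0.02 and 0.06, with 11 called in each direction. The 11452 autosomal genes had medians of -0.00158 and 0.00448, with 7.88% called lower. Each of the comparisons of E292V with WT, KO and L101P, which share the E292V libraries, gave medians between -0.50 and -0.41 over the 162 genes, and those of E690K lay between -0.03 and 0.02. A running median over 11 genes was below -0.2 from its first value, centred on ASMTL near the tip of the short arm, to MTRNR2L10, which ends at 55182920, a run of 152 windows, and 0 windows elsewhere on the chromosome were. The segment held 9.06% of the 1005 lower calls at that level.

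**Figure D5:**
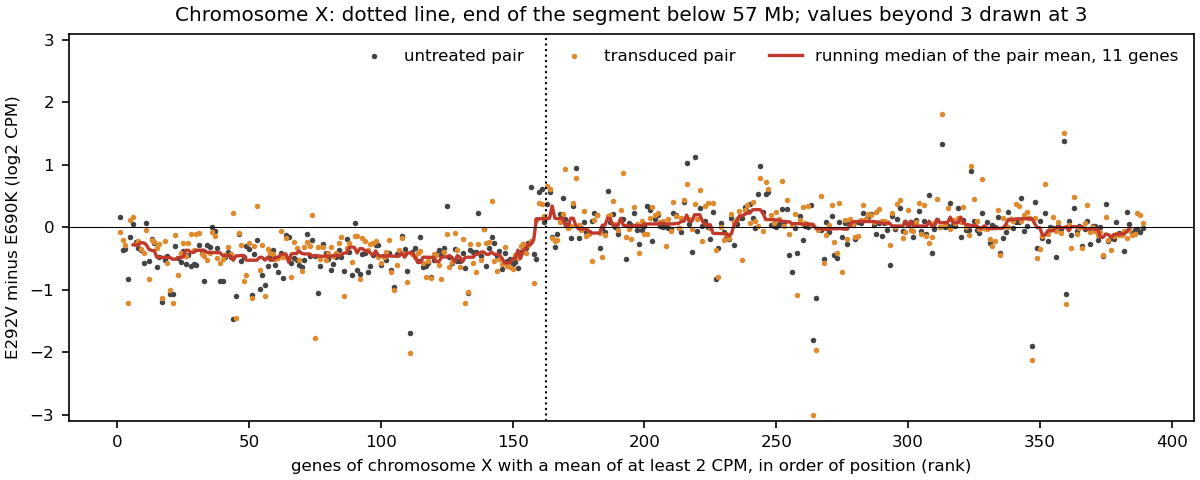
Log2 difference in CPM between E292V and E690K for the 389 genes of chromosome X that average 2 CPM or more, in order of position, with dark grey points for the untreated pair, orange points for the transduced pair and the running median of 11 genes as a line. The dotted line marks the end of the 162 genes below 57 Mb, whose medians were -0.46 and -0.41, and beyond it the running median lies around 0.

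The strongest calls in the segment included PORCN, which acylates Wnt proteins, at 10.1 and 8.85 CPM in E292V and 32.5 and 35.7 CPM in E690K (log2 fold change -1.85, SE 0.15, edgeR adjusted p 1.78e-05). WWC3, a scaffold of the Hippo pathway, differed by -1.14 on the log2 scale (SE 0.08, edgeR adjusted p 9.02e-06), and PLP2, a membrane protein, and MAP7D2, a microtubule-binding protein, had -1.04 (SE 0.10) and -1.01 (SE 0.10). SH3KBP1, an adaptor of receptor endocytosis, and FTSJ1, a tRNA methyltransferase, had -0.84 (SE 0.08) and -0.79 (SE 0.08). All 6 had both E292V libraries below the 6 WT, KO and L101P libraries. Among the gene lists, EBP, SMS and TFE3, a transcription factor of lysosomal genes (log2 fold change -0.56, SE 0.08, edgeR adjusted p 0.00100), lie in the segment and were called, while PIR and SAT1 lie there and were not (-0.04 and -0.14). COL4A6 lies on the long arm, outside it. On other chromosomes, 42 windows of 21 neighbouring genes had a median past 0.2 in the same direction in both pairs. Windows on chromosome 19 around a cluster of zinc finger genes were higher in E292V, with medians of 0.22 and 0.54 in the untreated and transduced pair in the window centred on ZNF548. Windows centred on KRT15 and KRT19 on chromosome 17 had medians of -0.24 and -0.30, and those on NET1 on chromosome 10 of -0.21 and -0.39.

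The response to the vector was also compared between the lines. Over genes averaging at least 10 CPM, the log2 difference of transduced minus untreated had a standard deviation of 0.19 in E292V and 0.11 in E690K, and 19 genes differed by more than 2-fold in E292V (15 higher and 4 lower) against 0 in E690K. The test of the difference between the 2 vector effects called 0 of 19236 genes (0.0%) at an edgeR adjusted p of 0.05, with 490 at an unadjusted p under 0.05 and a smallest adjusted p of 1.0. DESeq2 called 0 as well. The count was 9 without the KO pair, 25 without the WT pair and 116 without the L101P pair, 78 of these with the higher vector effect in E292V. Since each line had 1 library a treatment, the test had 2 residual degrees of freedom and took its error from the other 3 lines. The following genes were chosen after their values were seen, from the 19, which include EGFP. MDGA1, a synaptic adhesion regulator, stood at 13.1 CPM untreated and 45.2 CPM transduced in E292V, and at 6.33 and 7.15 CPM in E690K. ITGA11, a collagen-binding integrin chain, stood at 14.95 and 40.1 CPM against 4.90 and 3.94 CPM. CDH2, the neural cadherin of mesenchymal cells, stood at 51.6 and 106.5 CPM against 32.3 and 36.3 CPM. The choice of the 19 and the calls between the lines rest on the same E292V libraries, so their overlap is not independent. Of the 19 genes, 12 were also among those called between the lines, against 10.4% of all genes tested, DPYSL3, FLRT2, TFF1 and COL4A6 among them. PDE1C, a cyclic nucleotide phosphodiesterase, was not, since its E292V levels of 4.96 and 13.0 CPM reached the E690K levels of 12.7 and 12.1 CPM in the transduced library.

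Measured as root mean square difference in log2 CPM over the 9460 genes, the untreated and transduced E292V libraries were 0.19 apart and those of E690K 0.11. The distance between the lines was 0.32 for the untreated and 0.38 for the transduced libraries. The untreated E292V library was 0.19 from transduced WT and 0.21 from untreated WT, about as near as to its own transduced partner. The untreated E690K library was 0.30 from untreated WT and 0.18 from untreated L101P. Of the 1869 called genes, the mean WT level was nearer to E292V for 1320, whereas the KO level was nearer to E292V for 437 and the L101P level for 256. Set against the range of the 6 WT, KO and L101P libraries, 304 of the 794 higher genes had the E292V pair alone outside the range, 177 the E690K pair alone, 57 both and 256 neither. Among the 1075 lower genes the corresponding numbers were 547, 196, 92 and 240. Among both sets the E292V pair lay outside that range on its own more often than the E690K pair did. The KO and L101P libraries that help set the range were nearer to E690K. Untreated KO and L101P were 0.22 and 0.18 from untreated E690K and 0.29 and 0.30 from untreated E292V. The counts outside the range and of the nearer line were taken over called genes only, with no share over all genes tested.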

How the data were processed

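RNA was measured by bulk sequencing in 10 libraries of 5 A549 lines, each untreated and transduced. The authors deposited 1 table of raw counts per gene, with 33551 rows and 10 sample columns. The submitters' processing notes name featureCounts, Subread, edgeR, limma and build GRCh38. Their versions and roles, the counting strand and the treatment of shared reads are not given in the sources used here. Among deposited counts of 1 to 10, 81.4% were even, against 51.5% above 1000, so intervals and floors were computed on read pairs (3 pairs, or 6 counts, as the floor). They cover counting error only, since no molecular identifiers were used.

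Counts were fitted with edgeR 4.0.16 (limma 3.58.1, R 4.3.3) over all 10 libraries with terms for line and vector status (4 residual degrees of freedom), after filterByExpr and TMM scaling. The quasi-likelihood test of E292V minus E690K was adjusted by Benjamini-Hochberg at 0.05, and a standard error is the absolute log2 fold change over the square root of F. The biological coefficient of variation was 12.9%. A second fit tested whether the vector effect differed between the lines. The error behind the p-values is only the spread between these libraries. Alternatives were size factors, count filters, DESeq2 1.42.0, lines or libraries left out, KO labels exchanged and no vector term.

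Named genes were ABCA3, the reporters and surfactant genes, the 12 largest changes in each direction among called genes with an average log2 CPM of at least 1, the same direction in both pairs and no clone name, up to 5 called members of each gene list by size of change, and up to 6 of the chromosome segment by adjusted p. Other genes with values were chosen after these were seen. The members and lists were chosen with earlier results of these data known. Coordinates came from GENCODE release 29 by symbol, for 33075 rows (98.6%). The test was also run on simulated data, with 17169 genes tested. Every gene was drawn at the biological coefficient of variation of 12.9% from its mean over all libraries. No line or vector difference was put in besides the change set in E292V, and only genes above a count limit were changed. Recovery was thus not measured for genes with a wider spread or few counts. Of the genes changed by 1 on the log2 scale, 95% were called in the right direction, and of those changed by 2, 100%. Unchanged genes made up 10.1% of the calls, which is above the adjusted p threshold of 0.05. The run therefore does not show that false calls were held at that threshold. It used simulated counts, so the share of false calls among the real libraries was not measured.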

Additional observations from a re-analysis of the deposited data

Results flagged for a closer look

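EGFP and tdTomato were counted in libraries whose labels do not name them. Neither passed between the lines in the main fit (edgeR adjusted p 0.687 and 0.982). EGFP was at 20.2 CPM (1634 counts) in the untreated E292V library and at 16.5 CPM (1236 counts) in the untreated E690K library, both above the floor of 6 counts. The tdTomato row, a reporter that the labels of these libraries do not name, was at 8.74 CPM (708 counts) and 7.41 CPM (712 counts) in the untreated and transduced E292V libraries. It was at 7.38 CPM (552 counts) and 8.62 CPM (656 counts) in the untreated and transduced E690K libraries.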

How the results depend on the processing

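The count of 1869 genes rose to 3190 with the 4 libraries alone, to 2934 without the L101P pair and to 2966 without the KO and L101P pairs, the last a choice made after seeing the data. It ranged from 662 to 1563 when 1 of the 4 libraries was left out, and the cause was not tested. It lay between 1424 and 2452 in the other 8 alternatives (DESeq2 size factors, 2 filters on low counts, DESeq2, the KO or WT pair left out, KO labels exchanged and no vector term), with more genes lower than higher in each. The count of 0 for a differing vector effect became 9 without the KO pair, 25 without the WT pair and 116 without the L101P pair. The fit matched the libraries by vector status, and without that term 1712 genes were called; the labels carry no replicate numbers for any other pairing. Over 15 alternatives, 1761 values of 119 tested genes gave 147 that no longer passed and 2 that newly passed (both EGFP). Direction was compared only for the 113 genes that passed in the main fit, and 0 of their values changed direction. The median of the chromosome X segment was -0.43, and -0.44 both with DESeq2 size factors and at a mean of at least 10 CPM. With 1 library for each line and treatment, a difference between these lines has no check in independent clones.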
